A study of Bos taurus with 111 samples.

Results

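FOS, FOSB and JUN were followed as 3 genes of the 24616 counted in muscle biopsies from steers of a beef breed, Charolais (CH), and a dairy breed, Holstein-Friesian (HF). They were chosen by their Ensembl identifiers, ENSBTAG00000004322 for FOS, ENSBTAG00000008182 for FOSB and ENSBTAG00000004037 for JUN, and not by a threshold on their values. Earlier results of these data were known when they were chosen. All steers were reared for beef and, by the labels, had a mean age of 283 days (CH) or 306 days (HF) at the start of the first feeding phase. M. longissimus thoracis et lumborum was biopsied under local anaesthetic at the end of each of 3 feeding phases of 70 days. These were a first high concentrate phase while the steers were growing (H1), fresh cut grass fed indoors (zero-grazed, ZG) and a second high concentrate phase during finishing (H2). Within each breed and phase, steers of low residual feed intake (L-RFI), which ate less than predicted from their weight and growth, were set against steers of high residual feed intake (H-RFI). The steers were older and heavier in each later phase, and each phase was biopsied at its own time. Diet, age, weight and biopsy occasion therefore cannot be told apart in a difference between phases.

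Of 111 libraries from 83 steers, 104 libraries from 77 steers were used. The others were 6 libraries with under 1000000 reads on genes and 1 CH-ZG H-RFI library, of steer 571, in which 6 hepatocyte transcripts summed to 147694 CPM (reads of a gene scaled to a library of 1000000 reads on genes). The 12 groups held 7 to 11 libraries, and the depth was 15852125 reads on genes at the median, 2201765 at the lowest and 52552057 at the highest. A single phase was sampled in 52 of the steers, 2 phases in 23 and every phase in 2. No steer appears more than once in a group, but a steer in several phases links the groups of those phases. The sum of the hepatocyte transcripts stayed above 1000 CPM in 5 of the libraries used, all of HF steers. None of the 10 muscle fibre markers chosen was paired with an identifier, so the tissue itself was not checked by them.

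FOS, FOSB and JUN encode subunits of the transcription factor AP-1. Fos proteins cannot form stable dimers with each other and bind DNA together with a Jun protein, whereas JUN can also pair with itself. The 3 genes are immediate early genes: growth factors, stretch, contraction and stress raise their transcription within minutes through proteins already present in the cell, and their short-lived transcripts then decay. A single biopsy therefore records such a gene at one moment. In skeletal muscle they are known to respond to exercise and to injury.

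All 3 genes were detected in every library used. Read counts ranged from 9 to 33435 for FOS with a median of 539, from 1 to 5652 for FOSB with a median of 42, and from 51 to 11876 for JUN with a median of 1512. FOSB had 3 reads or fewer in 2 of the 104 libraries, and its lowest values are the least precise. CPM is not corrected for transcript length, so levels are compared between libraries and not between genes.

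The levels of FOS differed between phases. In CH steers its lowest, median and highest values were 2.98, 32.5 and 219.8 CPM in H1 (n = 18), 4.63, 111.6 and 1433 CPM in ZG (n = 17), and 1.10, 6.26 and 75.9 CPM in H2 (n = 14). In HF steers they were 7.70, 21.1 and 247.7 CPM in H1 (n = 20), 3.90, 102.3 and 1547 CPM in ZG (n = 19), and 2.27, 12.4 and 155.9 CPM in H2 (n = 16). The ranges of all phases overlapped in both breeds, since ZG held some of the lowest libraries as well as the highest. Even so, 12 of 17 CH-ZG libraries lay above every CH-H2 library, and 8 of 19 HF-ZG libraries lay above every HF-H2 library. FOS exceeded 100 CPM in 6 of 38 H1 libraries, 21 of 36 ZG libraries and 2 of 30 H2 libraries.

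FOSB, which like FOS carries a transactivation domain, had the same order of phases at far lower counts. In CH steers its lowest, median and highest values were 0.486, 3.26 and 43.3 CPM in H1, 0.520, 21.0 and 306.3 CPM in ZG, and 0.198, 1.05 and 3.36 CPM in H2. In HF steers they were 0.680, 4.09 and 97.7 CPM in H1, 0.681, 8.07 and 365.6 CPM in ZG, and 0.334, 1.67 and 16.1 CPM in H2. All 7 libraries above 100 CPM were from ZG. In CH, 13 of 17 ZG libraries exceeded every H2 library, against 7 of 19 in HF.

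JUN, the Jun subunit with the strongest transcriptional activity of its family, spanned a narrower range. In CH steers its lowest, median and highest values were 49.3, 91.2 and 221.3 CPM in H1, 53.1, 127.9 and 514.5 CPM in ZG, and 23.2, 51.6 and 96.4 CPM in H2. In HF steers they were 43.8, 98.6 and 243.0 CPM in H1, 55.5, 127.2 and 475.3 CPM in ZG, and 24.7, 44.4 and 133.8 CPM in H2. Here the low end moved as well as the high end. Of the H2 libraries, 8 of 14 in CH and 11 of 16 in HF lay below every ZG library of their breed.

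When the 6 combinations of breed and phase were ordered by median, CH-ZG and HF-ZG were the highest pair for each gene and both H2 combinations were last. For FOS and FOSB, no neighbours in that order differed by more than their pooled SD. For JUN the step from CH-H1 to CH-H2 did, at 1.09 on the log2 scale against a pooled SD of 0.67, and the other steps did not.

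**Figure D1:**
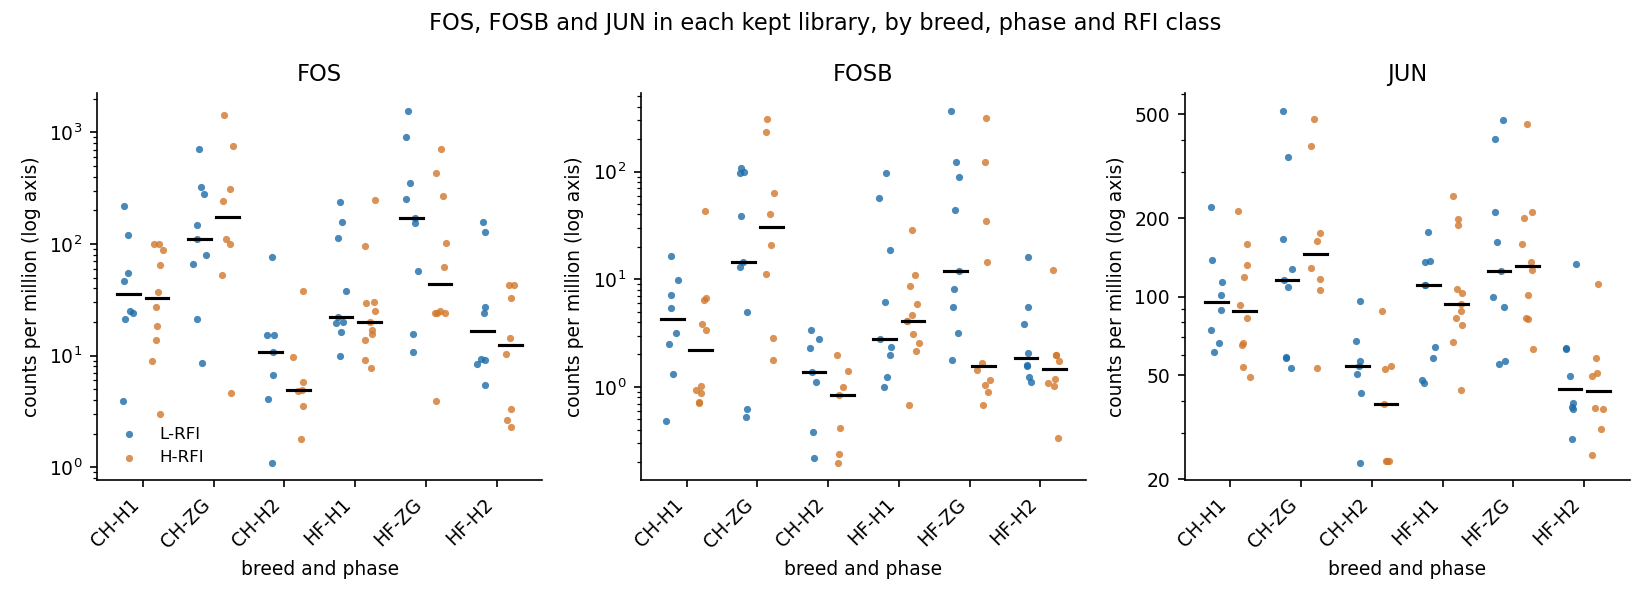
CPM of FOS, FOSB and JUN in each of the 104 libraries used (points, log axis), by breed, phase and RFI class, with the group median as a black bar. The highest points of every gene are ZG libraries, H2 medians are the lowest in both breeds except for FOSB in HF, where the ZG H-RFI median of 1.55 CPM lies below the H2 L-RFI median of 1.84 CPM, and the RFI classes overlap in every breed and phase.

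The differences between phases were tested with limma voom over all 104 libraries, with RFI class in the model and the steer as a block. A gene was called when its Benjamini-Hochberg adjusted p-value over 10291 genes was under 0.1 and its fold change above 1.5.

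From ZG to H2, all 3 genes fell in both breeds. In CH steers the log2 change was -4.10 for FOS (SE 0.68, adjusted p = 3.91e-05), -4.43 for FOSB (SE 0.93, adjusted p = 0.00291) and -1.78 for JUN (SE 0.25, adjusted p = 2.32e-06). The value of JUN was the smallest adjusted p of any gene in that comparison. By comparison, 0.962% of all genes tested were called lower there and 0.146% higher (1.11% in all). In HF steers it was -2.39 for FOS (SE 0.60, adjusted p = 0.00688), -2.12 for FOSB (SE 0.81, adjusted p = 0.0836) and -1.36 for JUN (SE 0.24, adjusted p = 0.000161), where 6.09% of all genes were called lower and 0.913% higher (7.01% in all). The call for FOSB in HF was lost in 4 of 8 other settings. Among them was limma voom without the steer as a block (adjusted p = 0.106), though not edgeR's quasi-likelihood test without it (adjusted p = 0.000405). The call was also lost on leaving out any one of 6 of the 19 HF-ZG libraries (adjusted p up to 0.157). With 1 library per steer, that of its earliest phase, only 9 HF-H2 and 5 CH-H2 libraries were left. FOSB then had an adjusted p of 0.339 in HF and 0.152 in CH.

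From H1 to ZG, all 3 genes rose in CH steers. FOS rose 4.71-fold (log2 change 2.24, SE 0.59, adjusted p = 0.0171), FOSB 7.20-fold (log2 change 2.85, SE 0.73, adjusted p = 0.0147) and JUN 1.85-fold (log2 change 0.89, SE 0.24, adjusted p = 0.0203). In that comparison 0.972% of all genes were called higher and 1.43% lower (2.4% in all). With all 111 libraries, which adds the shallow ones and steer 571, FOS had an adjusted p of 0.179 and JUN of 0.317, and both calls were lost. In HF steers none of the 3 passed. The log2 change was 1.67 for FOS (SE 0.55, adjusted p = 0.162), 1.06 for FOSB (SE 0.70, adjusted p = 0.711) and 0.66 for JUN (SE 0.22, adjusted p = 0.180), and 0.457% of all genes were called higher and 0.233% lower (0.69% in all). edgeR's quasi-likelihood test without the block called all 3 there, with adjusted p-values of 0.0271 for FOS, 0.0801 for FOSB and 0.0897 for JUN. FOS was also called by limma voom on leaving out either of 2 HF-ZG libraries (lowest adjusted p = 0.0538).

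H1 and H2 shared their diet but not the stage of growth. JUN was lower in H2 in both breeds, by a log2 change of -0.89 in CH (SE 0.25, adjusted p = 0.0310) and -0.70 in HF (SE 0.23, adjusted p = 0.0218). Of all genes, 2.32% were called lower and 0.398% higher in CH (2.72% in all), and 13.7% lower and 2.58% higher in HF (16.3% in all). Both calls were lost with 1 library per steer (adjusted p = 0.441 in CH and 0.140 in HF), which left 5 CH-H2 and 9 HF-H2 libraries. The call in CH was also lost with all 111 libraries (adjusted p = 0.151). FOS changed by -1.86 in CH (SE 0.66, adjusted p = 0.117) and -0.72 in HF (SE 0.59, adjusted p = 0.362), and FOSB by -1.58 (SE 0.96, adjusted p = 0.446) and -1.06 (SE 0.82, adjusted p = 0.334). None of these 4 values passed. edgeR's test without the block gave FOSB in HF an adjusted p of 0.0583. The 3 phase comparisons within a breed share their libraries and are not independent of each other.

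**Figure D2:**
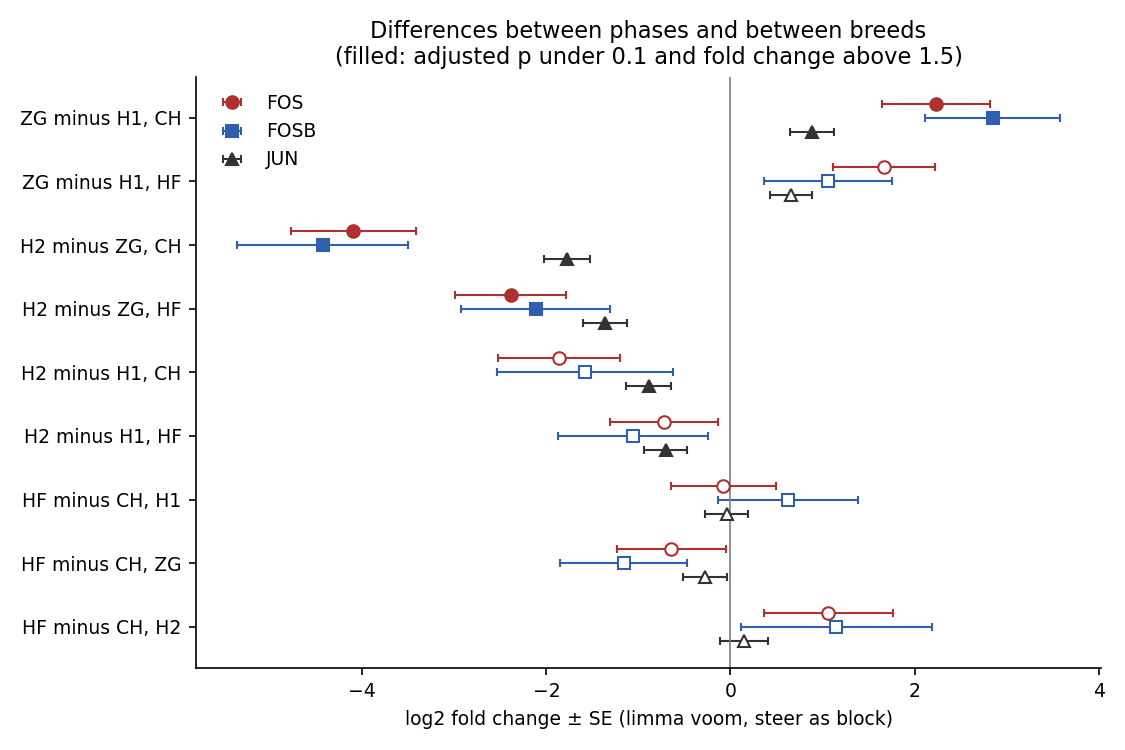
Log2 fold changes of FOS (circles), FOSB (squares) and JUN (triangles) between phases within each breed and between breeds within each phase, with standard errors from limma voom. Filled symbols passed the adjusted p and fold thresholds. All 3 genes are filled for ZG minus H1 in CH and for H2 minus ZG in both breeds, and all are open between breeds.

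Markers of other cell types and library measures were also set side by side for the phases. Their medians are a description, and only the calls named here rest on a test. The median sum of 3 adipocyte markers was 7.93 CPM in H1, 7.39 CPM in ZG and 20.2 CPM in H2. In HF steers all 3 (FABP4, CIDEC and TRARG1) were called higher in H2 than in H1 and than in ZG, and in CH steers none was. The median sum of 10 leukocyte markers was 18.3, 8.02 and 8.00 CPM. The median sum of the 6 hepatocyte transcripts was 106.5, 89.9 and 114.8 CPM, with a highest value of 14448 CPM in 1 HF-ZG H-RFI library. HBD, the only red blood cell marker with an identifier, was at 0 in every H1 and ZG library used and reached 0.0839 CPM in H2. The share of reads outside annotated genes was 13.2%, 11.7% and 10.4% at the median, and median depth was 15574483, 16649908 and 14110662 reads. Reads mapping to several places (multimapping) were 7.43%, 7.07% and 6.95% at the median and 35.0%, 8.33% and 22.2% at most. Unmapped reads were 1.32%, 1.22% and 1.12% at the median and 13.3%, 2.52% and 8.21% at most. Steer 1484 (CH), also sampled in ZG, had the highest H2 value of both, with 1.78 CPM of FOS in that library. The part of adipocytes, leukocytes and of unannotated, multimapping or unmapped reads in the results was not tested. Without the 5 libraries above 1000 CPM of hepatocyte transcripts, all calls of the 3 genes between phases remained, and FOSB from ZG to H2 in HF steers had a log2 change of -2.48 (adjusted p = 0.0412). In whole tissue, fewer cells expressing a gene and less transcript per cell cannot be told apart.

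Between breeds, none of the 3 genes passed in any phase. FOSB in ZG had the smallest unadjusted p, with HF minus CH at -1.16 on the log2 scale (SE 0.69, p = 0.0965 and adjusted p = 0.398 by limma voom). FOS was at -0.08 in H1 (SE 0.57), -0.64 in ZG (SE 0.59) and 1.06 in H2 (SE 0.70). JUN was at -0.04 (SE 0.23), -0.27 (SE 0.24) and 0.14 (SE 0.26) in the same phases. FOSB was at 0.63 in H1 (SE 0.76) and 1.15 in H2 (SE 1.04). Of all genes, 0.262% were called between breeds in H1, 1.69% in ZG and 0.223% in H2.

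Breed and phase were also tested together, by the interaction of breed with phase. The F test of limma voom gave an unadjusted p of 0.157 for FOS, 0.0850 for FOSB and 0.486 for JUN, each with an adjusted p of 0.935. Of the 10291 genes tested 0 were called, with 547 (5.32%) at an unadjusted p under 0.05, and edgeR's quasi-likelihood test without the block called 1. This test takes all 3 phases together. By it, no difference between breeds was shown for any of the 3 genes. The larger fall from ZG to H2 in CH than in HF steers was not tested on its own. The paper, by contrast, reports FOS and FOSB as affected in its own interaction analysis of diet and breed.

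Between RFI classes, compared with edgeR's quasi-likelihood test within each breed and phase, none of the 3 genes passed. The number of genes called was 0 (0%) in each of the 6 comparisons, and an unadjusted p under 0.05 was reached by 2.04%, 0.804% and 0.884% of genes in H1, ZG and H2 of CH steers and by 2.93%, 11.6% and 0.725% of genes in those phases of HF steers. edgeR's exact test called 2 genes in CH-H1 and 1 in CH-H2, and DESeq2's Wald test called 2 in CH-H1, 2 in CH-H2 and 1 in HF-ZG. None of these tests called FOS, FOSB or JUN. The paper, by contrast, reports FOS and FOSB as differentially expressed in HF-H1, higher in L-RFI steers, from edgeR's exact test. The cause of this difference was not tested.

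FOSB in HF-H1 was the one value under an unadjusted p of 0.05. Its lowest, median and highest levels were 0.992, 2.81 and 97.7 CPM in 9 L-RFI steers and 0.680, 4.12 and 28.8 CPM in 11 H-RFI steers. The median was thus lower in the L-RFI class, whereas its mean of 20.9 CPM (SD 33.9) was above the H-RFI mean of 6.87 CPM (SD 7.85). The test, which compares means, gave a log2 fold change of 2.17 (SE 0.81, p = 0.0134, adjusted p = 1.00 by edgeR's quasi-likelihood test). Leaving out 1 library at a time moved it between 1.19 and 2.73. The highest L-RFI library, that of steer 2102, had 35.0% multimapping and 13.3% unmapped reads, against HF-H1 medians of 7.43% and 1.26%. The part of this in the value was not tested. FOS in the same steers had lowest, median and highest levels of 9.93, 22.1 and 237.2 CPM in L-RFI and 7.70, 20.0 and 247.7 CPM in H-RFI (log2 fold change 1.17, SE 0.68, p = 0.0984, adjusted p = 1.00).

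In HF-ZG the medians of the Fos genes lay apart, but neither gene passed the test. FOSB had a median of 12.0 CPM in 9 L-RFI steers and of 1.55 CPM in 10 H-RFI steers, but the highest values of both classes were alike at 365.6 and 313.2 CPM. Its log2 fold change was 0.00 (SE 1.17), and leaving out 1 library moved it from -0.86 to 1.56. FOS had a median of 169.1 CPM in L-RFI and 43.7 CPM in H-RFI steers, with a log2 fold change of 0.86 (SE 0.88, p = 0.341, adjusted p = 0.535 by edgeR's quasi-likelihood test). JUN had medians of 125.8 and 131.7 CPM. The median sum of the leukocyte markers was 9.73 CPM in L-RFI and 40.0 CPM in H-RFI steers of this phase, and its part in these values was not tested.

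In HF-H2, FOS had medians of 16.7 CPM in 8 L-RFI and 12.4 CPM in 8 H-RFI steers and a log2 fold change of 1.42 (SE 0.68, p = 0.0506, adjusted p = 1.00 by edgeR's quasi-likelihood test). In CH-ZG the sign was the opposite. FOS medians were 111.3 CPM in 9 L-RFI and 175.7 CPM in 8 H-RFI steers, with a log2 fold change of -0.70 (SE 0.77). In the other CH phases the log2 fold change of FOS was 0.31 in H1 (SE 0.61) and 0.92 in H2 (SE 0.67). JUN stayed between -0.11 and 0.37 in all 6 comparisons, with standard errors of 0.26 to 0.42. A test of whether the RFI difference varied between the 6 comparisons gave an unadjusted p of 0.711 for FOS, 0.259 for FOSB and 0.877 for JUN by limma voom. It called 0 of all genes, with 107 (1.04%) at an unadjusted p under 0.05.

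The Fos genes varied widely between steers of the same group. The pooled within-group SD of log2(CPM + 0.5) was 1.88 for FOS and 1.96 for FOSB, against a median of 0.60 over the 10291 genes. FOSB ranked 4 and FOS ranked 5 of all genes in this spread (99.96% and 99.95% of genes had a smaller one). JUN, with an SD of 0.82, ranked 2835 of 10291, larger than 72.5% of genes. Within a single group the highest FOS library exceeded the lowest by a factor of 19.0 to 309.5, and JUN by 3.61 to 9.60.

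**Figure D3:**
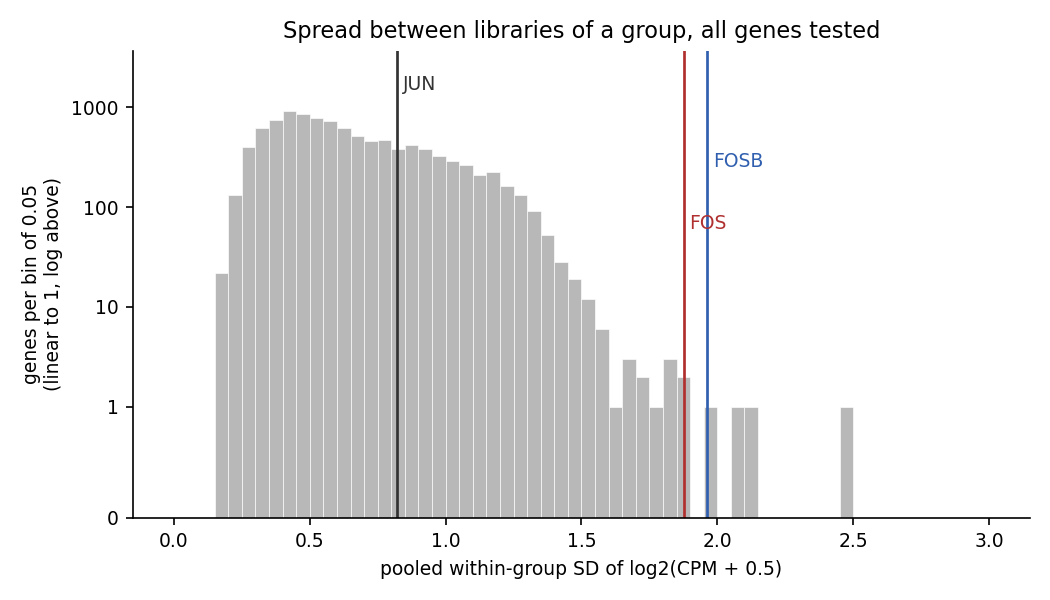
Number of genes by pooled within-group SD of log2(CPM + 0.5) in bins of 0.05 (vertical axis linear to 1 and logarithmic above), over 10291 genes, with FOS, FOSB and JUN marked. FOS at 1.88 and FOSB at 1.96 lie in the far right tail, and JUN at 0.82 lies within the main body.

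The 12 groups accounted for 36.9% of the variance of FOS, 33.1% of FOSB and 41.3% of JUN, against a median of 15.3% over all genes. Phase alone accounted for 32.2%, 26.8% and 39.8%, with a median of 6.67% over all genes. Most of the variance of all 3 genes thus lay between libraries of the same group. The spread was largest in ZG. The SD of log2 FOSB was 1.63 in H1, 2.70 in ZG and 1.08 in H2, and that of FOS was 1.55, 2.25 and 1.69.

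The highest libraries of one gene were mostly among the highest of the others. Steer 2094 (HF-ZG L-RFI) had the highest FOS, at 1547 CPM, and the highest FOSB, at 365.6 CPM, and ranked 5 for JUN, at 402.8 CPM. Steer 1879 (CH-ZG H-RFI) ranked 2 for FOS and JUN and 4 for FOSB, at 1433, 478.3 and 231.8 CPM. Steer 310 (CH-ZG L-RFI) had the highest JUN, at 514.5 CPM, and ranked 5 for FOS at 707.7 CPM and 7 for FOSB at 108.4 CPM. Both RFI classes and both breeds were among the highest libraries. Below these the genes could part, as in steer 1811 (HF-H1 H-RFI), with 247.7 CPM of FOS and 243.0 CPM of JUN but 4.62 CPM of FOSB.

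Across steers the 3 genes were correlated after each group's mean had been removed. With 1 library per steer (n = 77), FOS and FOSB had Pearson's r = 0.820 and Spearman's rho = 0.812, FOS and JUN r = 0.720 and rho = 0.672, and FOSB and JUN r = 0.640 and rho = 0.571. Two-sided permutation tests gave p = 1e-05 for each, raw and adjusted over the 3 pairs, which is the smallest that 100000 permutations can give. Without the 2 steers farthest from the median of the first gene, r was 0.800, 0.702 and 0.613. The genes of a library share its depth and its handling, and their part in these correlations was not tested. Within the 6 combinations of breed and phase, r of FOS with FOSB ranged from 0.646 (HF-H1, n = 20) to 0.900 (CH-ZG, n = 17). That of FOSB with JUN ranged from 0.265 (CH-H2, n = 14) to 0.840 (CH-ZG).

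**Figure D4:**
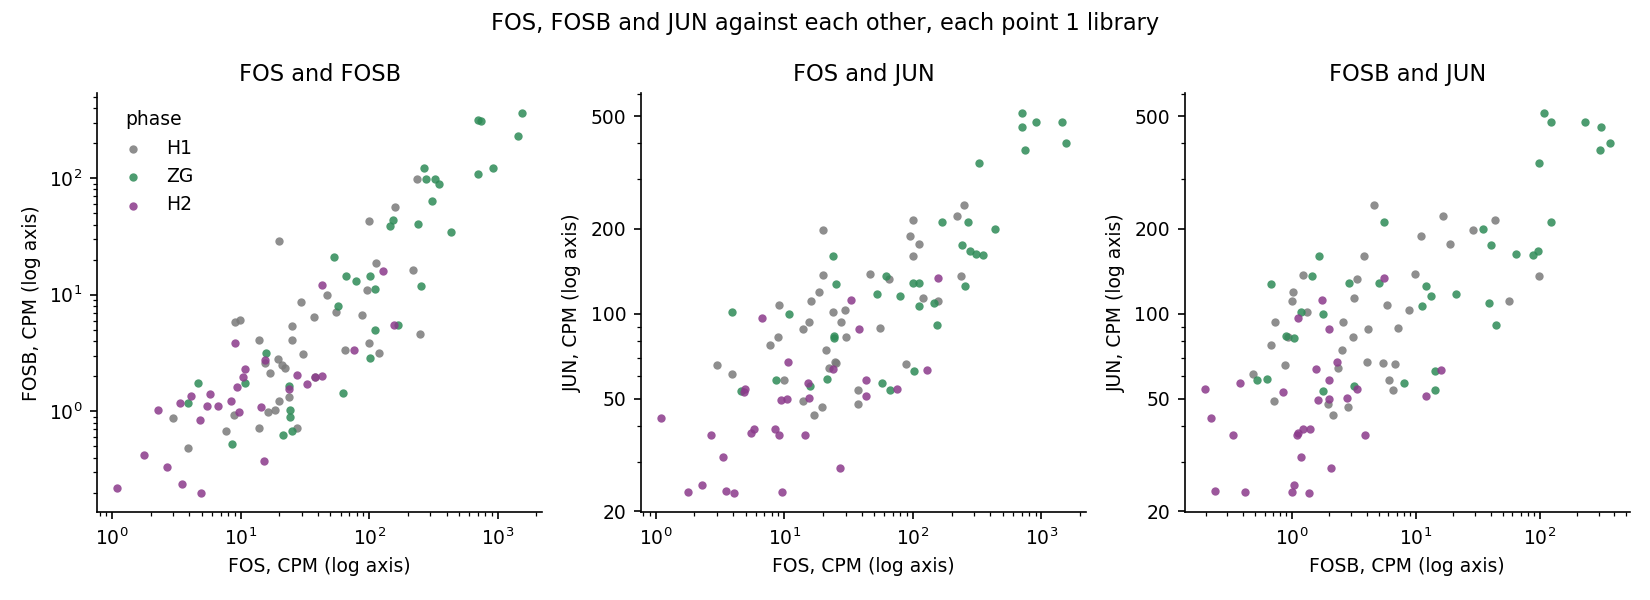
FOS, FOSB and JUN against each other in CPM (log axes), each point 1 of 104 libraries, coloured by phase. The genes rise together across libraries, less closely for FOSB and JUN in H2 (group-centred r = 0.265 in CH and 0.407 in HF). The libraries at the top right are from ZG.

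The 5 genes most like each member were taken by Pearson's r of the group-centred log2 values over 104 libraries and 10291 genes. For FOS these were ENSBTAG00000047752, to which no symbol was paired (r = 0.851), BTG2, an anti-proliferative gene (r = 0.810), FOSB (r = 0.800), NR4A2, an orphan nuclear receptor (r = 0.759), and ENSBTAG00000020355, also without a symbol (r = 0.746). For FOSB they were FOS, ENSBTAG00000047752 (r = 0.712), BTG2 (r = 0.712), CSRNP1, a nuclear protein (r = 0.691), and NR4A1, another orphan nuclear receptor (r = 0.672). For JUN they were ENSBTAG00000039764, without a symbol (r = 0.841), BTG2 (r = 0.818), ENSBTAG00000020355 (r = 0.816), ENSBTAG00000047752 (r = 0.813) and MIDN, which encodes midnolin (r = 0.803). The median r over all genes was 0.21 with FOS, 0.02 with FOSB and 0.32 with JUN.

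The pathway could be followed further only where a symbol was paired with an identifier, by the study's list of differentially expressed genes. That list was chosen on these samples and is not independent evidence of a direction or of a share called. It gave 2 other AP-1 genes (JUNB and FOSL2) of 11 looked for and 10 immediate early genes outside AP-1 of 26. None of 17 genes upstream of FOS and JUN was paired with an identifier. Of these 12 genes, 11 were among the 103 genes (1.00% of all) most like FOS, 11 among those most like FOSB and 10 among those most like JUN. GADD45A, a stress gene that restrains the cell cycle, was the exception for all 3, with r = 0.10 to FOS, and EGR1 ranked 152 for JUN.

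From ZG to H2, JUNB and FOSL2 fell in both breeds. JUNB, a Jun protein of weaker activity, changed by -1.56 on the log2 scale in CH (SE 0.44, adjusted p = 0.0504) and by -1.502 in HF (SE 0.38, adjusted p = 0.00755). FOSL2, a Fos protein without a strong activation domain, changed by -1.29 in CH (SE 0.25, adjusted p = 0.000962) and by -1.25 in HF (SE 0.23, adjusted p = 0.000249). Among the immediate early genes outside AP-1, 8 of 10 fell in CH, where 0.962% of all genes did, and 7 of 10 fell in HF, where 6.09% did, and 0 rose. Since these genes were found through the study's list, the shares are a description and not a test. Their median log2 change was -1.76 in CH and -1.08 in HF, against -0.02 and -0.05 over all genes. NR4A2 changed most, by -4.40 in CH (SE 0.79) and -4.33 in HF (SE 0.75), followed by NR4A3, also an orphan receptor, by -3.19 in CH (SE 0.73) and -3.57 in HF (SE 0.70). CCN2, a matricellular protein, and GADD45A, both named after their values were seen, were not called in either breed, and EGR1, a zinc finger transcription factor, was called in CH only (-1.83, SE 0.50, adjusted p = 0.0416) with a value of -0.17 in HF (SE 0.45).

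From H1 to ZG, 4 of the 10 immediate early genes rose in CH, where 0.972% of all genes did, and 0 fell. These were NR4A2 (log2 change 2.56, SE 0.62), BTG2 (1.52, SE 0.44), CSRNP1 (1.39, SE 0.37) and NR4A1 (1.06, SE 0.26). The median of the list was 0.87, against -0.05 over all genes. Neither JUNB at 0.58 nor FOSL2 at 0.58 was called. In HF, where 0.457% of all genes rose, 3 of the 10 did, namely NR4A2 (2.05, SE 0.58), CCN1, also a matricellular protein (0.89, SE 0.22), and ZFP36, which promotes decay of short-lived transcripts (0.72, SE 0.20), with a list median of 0.60 against -0.03. JUNB also rose in HF (1.58, SE 0.35, adjusted p = 0.0128), although FOS, FOSB and JUN did not pass there. From H1 to H2 in HF, FOSL2 and 5 of the 10 fell, in a comparison in which 13.7% of all genes did. In CH 0 of the 12 were called from H1 to H2. Between RFI classes and between breeds, 0 of the 12 were called in any comparison.

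Steers sampled in several phases allowed the same animal to be compared with itself. FOS was lower in H2 than in ZG in 7 of 7 steers, FOSB in 6 of 7 and JUN in 6 of 7. Between H1 and H2, JUN was lower in H2 in 11 of 11 steers, FOS in 9 of 11 and FOSB in 8 of 11. From H1 to ZG the animals divided: FOS and FOSB were higher in ZG in 7 of 11 steers and JUN in 5 of 11. JUN, which was called higher in ZG over all CH steers, was higher in 2 of the 5 CH steers sampled in both phases, with a median ratio of 0.931, and in 3 of the 6 HF steers, with a median ratio of 1.24. In CH the ratio of ZG to H1 for FOS ranged from 0.407 to 5.96 over 5 steers, and in HF from 0.156 to 32.7 over 6 steers.

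**Figure D5:**
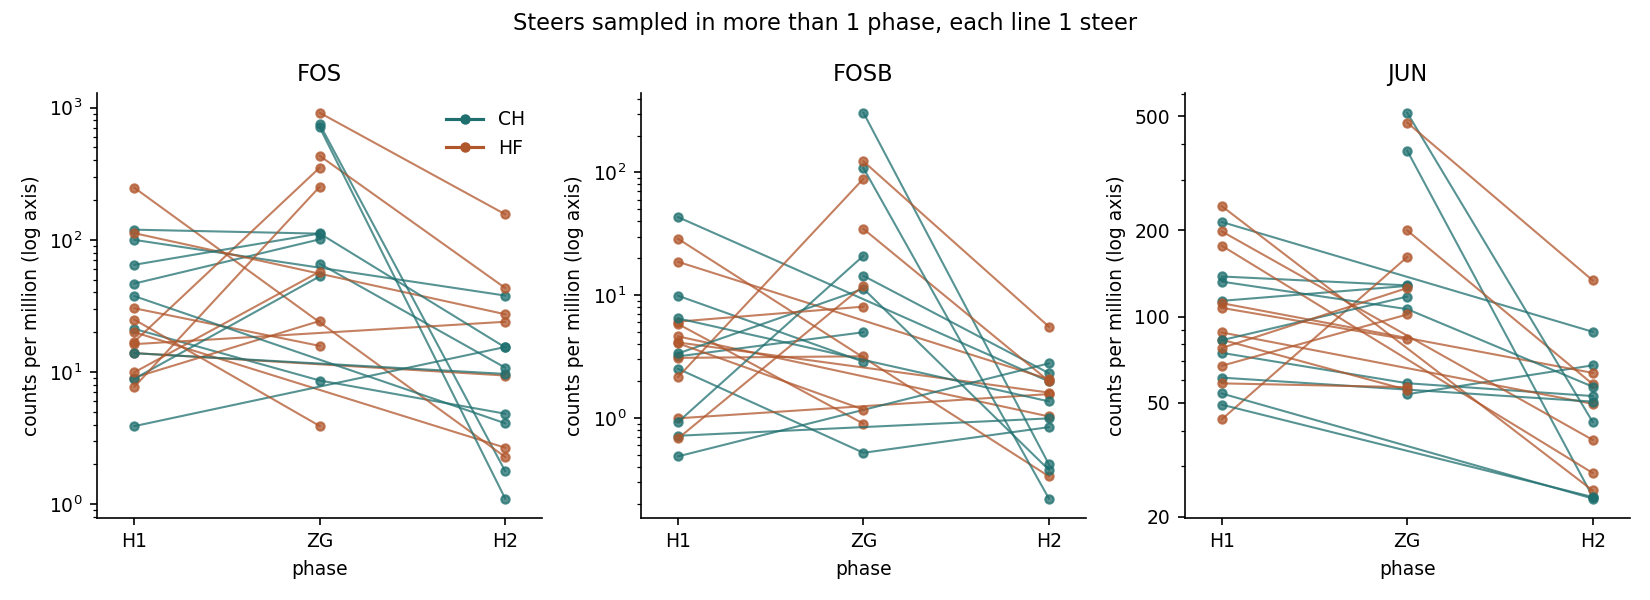
CPM (log axis) of FOS, FOSB and JUN in the 25 steers with libraries in more than 1 phase, each line 1 steer, coloured by breed. Lines fall from ZG to H2 in 7 of 7 steers for FOS, and run in both directions from H1 to ZG.

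No correlation between a steer's levels in different phases was detected. Over 25 steers, the group-centred log2 values of a steer's earliest 2 phases had r = 0.107 and rho = 0.022 for FOS, r = 0.060 and rho = 0.065 for FOSB, and r = 0.278 and rho = 0.138 for JUN. Two-sided permutation p-values of r were 0.609, 0.777 and 0.178, with adjusted values of 0.777, 0.777 and 0.535 over the 3 genes. Those of rho were 0.919, 0.755 and 0.510, all with an adjusted value of 0.919. Without the 2 steers farthest from the median, r was 0.270, -0.085 and 0.114. In the limma model the within-steer correlation was 0.153 for FOS, -0.046 for FOSB and 0.215 for JUN, with a median of 0.120 over all genes.

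Of the steers used, 8 were L-RFI in one phase and H-RFI in another. FOS was higher while the steer was L-RFI in 3 of 8, FOSB in 5 of 8 and JUN in 4 of 8. Steer 5635 (HF) had 7.70 CPM of FOS in H1 as H-RFI and 252.2 CPM in ZG as L-RFI, whereas steer 2064 (HF) had 30.3 CPM and 15.7 CPM at the same steps. Class and phase changed together in these animals and cannot be told apart.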

How the data were processed

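Muscle RNA from 111 biopsies was sequenced by the authors as single-end reads from stranded mRNA libraries, checked with FastQC 0.11.5 and trimmed with Cutadapt. The authors aligned the reads with STAR 2.5.1 and deposited its raw counts per gene, with no normalization or filter. The submitters' processing notes name the build UMD3.1 and the paper's methods ARS-UCD1.2, so no coordinates are given. Each file holds unstranded, first-strand and reverse-strand counts. The reverse-strand counts were used and held 97.6% to 99.5% of the stranded counts on genes. Of the 198 identifiers in the study's list of differentially expressed genes, 173 have a row, and the symbols of genes other than the members come only from that list.

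CPM was taken over the reads on genes. Depth allowed 3 counts to stand for 0.0571 to 1.36 CPM per library, which covers counting error only. Genes with at least 1 CPM in 50% of the libraries of a fit were tested, after TMM scaling. RFI classes were compared with edgeR's quasi-likelihood test within each breed and phase. Phases, breeds, their interaction and the variation of the RFI difference were tested with limma voom over all libraries used, with the steer as a replicate block through duplicateCorrelation (consensus correlation 0.128, or 0.0966 in the last model). Same-numbered libraries of different phases come from the same steer by their titles. Adjusted p-values are by Benjamini-Hochberg over all genes tested, or over the 3 pairs or 3 genes for correlations, and a p not called adjusted is raw. Calls needed an adjusted p under 0.1 and a fold change above 1.5, or the adjusted p alone for the F tests. Spread, correlation and likeness used log2(CPM + 0.5).

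The members and gene lists were chosen with earlier results of these data known. Named were the members, up to 6 list genes per comparison by size of change, the 5 genes most like each member and cell type markers. Both models were tested on simulated data, with 100 genes changed 2-fold and 100 changed 4-fold. Between RFI classes, 24 (CH-H2) to 75 (CH-H1) of the 2-fold and 86 to 95 of the 4-fold changes were recovered. Of the calls there, 2.61% (HF-H2) to 11.2% (HF-H1) were false. In comparisons of ZG with another phase, 75 to 87 of the 2-fold and 96 of the 4-fold changes were recovered, with 5% to 8.12% of calls false. The simulated libraries were independent of each other, so the steer block was not checked by them. The changed genes were picked at random, so the shares do not hold for genes as variable as FOS and FOSB. Of the lists fixed for these comparisons, 1 is not reported here. Alternatives were other tests, scalings, filters, strands and pseudocounts, no replicate block, all libraries and leaving out each library. Chosen after seeing the data were leaving out the 5 libraries with hepatocyte transcripts, 1 library per steer, and each ZG library in turn in the phase and breed comparisons with the consensus correlation held. The fits used limma 3.58.1, edgeR 4.0.16 and DESeq2 1.42.0 under R 4.3.3, and the other values were computed with numpy 2.4.6.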

Additional observations from a re-analysis of the deposited data

Results flagged for a closer look

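FOSB in 1 CH-H1 H-RFI library, that of steer 1320, stood apart from the rest of its group at 43.3 CPM. FOSB in 1 HF-H2 H-RFI library, that of steer 5617, stood apart at 12.1 CPM. Each was far above the nearest library of its group by Dixon's criterion on the log2 scale. This was met in 2 of 33 sets of a gene and a group on that scale and in 11 on the CPM scale, and chance meets it in about 1 in 20.

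Signal above 3 reads was also present in libraries not used in the comparisons. JUN was at 107.1 CPM in the HF-H1 L-RFI library of steer 2251. The CH-H2 H-RFI library of steer 871 had 16.9 CPM of FOS and 67.5 CPM of JUN, and the CH-H2 L-RFI library of steer 954 had 177.7 CPM of FOS and 88.8 CPM of JUN. All 3 had under 1000000 reads on genes. The CH-ZG H-RFI library of steer 571, with its high hepatocyte transcripts, had 1.09 CPM of FOS, 0.289 CPM of FOSB and 13.0 CPM of JUN.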

How the results depend on the processing

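Of 378 values of FOS, FOSB and JUN under other settings, 352 kept their direction and side of the threshold, 10 lost a call, 4 gained one, 3 moved and 9 changed sign. The limits are the low reads of FOSB, steers shared between phases, and phase lying together with age, weight and biopsy occasion.

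Without the replicate block (the steer), limma voom called 11 genes between breeds in H2 and gave FOSB from ZG to H2 in HF -2.03. edgeR's quasi-likelihood test without it called 323 genes between breeds in ZG, 172 from H1 to H2 in CH, 479 from ZG to H2 and 995 from H1 to H2 in HF, and 1 for the interaction. It gave FOS 2.24, FOSB 2.30 and JUN 0.80 from H1 to ZG in HF, FOSB -1.93 from H1 to H2 in HF, and FOS 0.11 and JUN 0.036 between breeds in H1. These edgeR values differ from the reported ones in the test as well as the block. With limma voom, leaving out the block changed no call of the 3 genes between phases or breeds other than that of FOSB from ZG to H2 in HF.

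With 1 library per steer, 41 genes were called between breeds in ZG, 0 in H2, 22 from ZG to H2 in CH, and 262 from ZG to H2 and 506 from H1 to H2 in HF. FOSB from ZG to H2 was -5.42 in CH and -2.10 in HF, JUN from H1 to H2 was -0.75 in CH and -0.74 in HF, and JUN between breeds in H2 was -0.034. With all 111 libraries, 8, 4 and 1 genes were called between breeds in H1, ZG and H2, 41, 45 and 44 from H1 to ZG, ZG to H2 and H1 to H2 in CH, and 16, 229 and 901 in HF. FOS from H1 to ZG in CH was then 1.82 and JUN 0.62, JUN from H1 to H2 in CH -0.87 (call lost), FOSB from ZG to H2 in HF -1.98, and the within-group SD 2.15 for FOS and 1.31 for JUN. With TMM factors the SD of JUN was 0.74. Without the 5 libraries with hepatocyte transcripts, 40 genes were called between breeds in ZG and 37 in H2. Without the filter, 10 genes were called between breeds in H2 and 503 from H1 to H2 in CH, FOSB from ZG to H2 in HF was -2.06, and JUN between RFI classes in CH-H1 was -0.0015.

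Between RFI classes, edgeR's exact test called 2 genes in CH-H1 and 1 in CH-H2, and DESeq2 called 2, 2 and, in HF-ZG, 1. FOSB in HF-ZG, at 0.00, was -0.010 by the exact test, -0.054 by DESeq2, -0.043 with RLE size factors, -0.050 with all libraries and -0.0039 with unstranded counts. The cause of these changes was not tested.

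Leaving out 1 library at a time, the RFI difference in CH-H1 ranged from -0.24 to 0.60 for FOS, -0.72 to 1.01 for FOSB and -0.17 to 0.23 for JUN. In CH-ZG it ranged from -1.29 to 0.13 for FOSB and -0.35 to 0.20 for JUN, and in CH-H2 from -0.013 to 1.67 for FOS. In HF it ranged from -0.033 to 0.25 for JUN in H1, -0.86 to 1.56 for FOSB and -0.10 to 0.67 for JUN in ZG, and -0.034 to 0.41 for JUN in H2. Between breeds in ZG, 85 to 347 genes were called, with 132 to 550 from H1 to ZG in CH and 506 to 1090 from ZG to H2 in HF. FOS from H1 to ZG in HF ranged from 1.45 to 1.96, and was called without HF-ZG L-RFI replicate 3 (adjusted p = 0.0839 by limma voom) or H-RFI replicate 8 (adjusted p = 0.0538). FOSB from ZG to H2 in HF ranged from -2.34 to -1.80, and lost its call without HF-ZG H-RFI replicate 1, 2 or 5 or L-RFI replicate 5, 7 or 8 (adjusted p from 0.101 to 0.157).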
